A study of Rattus norvegicus with 5 samples.

Results

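Cells with a myocyte profile were examined in 2 control cultures that had received an adenovirus carrying GFP, and those in which the EGFP transcript was detected were compared with those in which it was not. Members were chosen within each library on its own, from barcodes with at least 500 genes. M is the summed level of Tnnt2, Actc1 and Myh6 in CPM, that is, UMIs of a gene scaled to a common total per cell, and S is the summed level of Col1a1, Col1a2 and Col3a1. A cell was a member where M exceeded 2 times S. It was called EGFP-positive where its EGFP count was above 0. At day 3, 4836 of 8128 kept cells were members, 2547 of them EGFP-positive and 2289 EGFP-negative. At day 14, 1779 of 6424 kept cells were members, 796 EGFP-positive and 983 EGFP-negative. Together these were 6615 of the 36996 kept cells of the series.

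The cells were primary ventricular cells, myocytes and non-myocytes together, of wild type Sprague dawley rats at age P2. Both cultures received Adeno-GFP, and one was collected at 3 days and the other at 14 days. The rest of the series consists of 3 cultures given Adeno-TBX18, a virus for the transcription factor TBX18, for 3 days, for 14 days, and together with A83-01 at 0.2 µM. They are used here only for side-by-side values and to define gene groups. For the culture with A83-01, the title gives day 14 and the treatment field 3 days, and it is called by its title. Sources used here do not give the promoter that drives EGFP, the dose of virus or the number of animals pooled. Every group has 1 library, so no difference has a replicate check. All intervals are exact 95% intervals, and they cover counting error only. The kept cells had a median of 23282 UMIs at day 3 and 15668 at day 14, UMIs being the molecular barcodes by which captured transcripts are counted.

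EGFP is a green fluorescent protein used as a payload in control viruses. Adenoviral vectors enter cells through surface receptors and deliver their genome to the nucleus without inserting it into the chromosomes, and cells of one culture can take up different numbers of particles. Tnnt2 encodes cardiac troponin T of the thin filament, Actc1 cardiac alpha actin and Myh6 the fast cardiac myosin heavy chain. Col1a1 and Col1a2 encode the chains of collagen I and Col3a1 the chain of collagen III, the main products of cardiac fibroblasts.

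The files name genes by Ensembl ID only, and none of them could be paired with a symbol (0 of 17060). The 6 genes above are named because the selection rule pairs their IDs with symbols. Of the other genes, 4 IDs are given, the 2 highest and the 2 lowest by the rule in the processing section. They were picked over all members of these same libraries for the same direction at both days. Their direction over all members is therefore fixed by the choice. The rest are described by groups and counts. An absent EGFP UMI does not mean an uninfected cell, since detection depends on depth.

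Levels of the 3 contractile genes were high in most but not all members, which is a description, as the rule used these genes. No other marker could be looked up by ID, so the label of myocytes was not tested on other genes. At day 3, 4670 members had M of at least 5000 CPM, with 10378 CPM of Tnnt2, 5349 CPM of Actc1 and 6679 CPM of Myh6 in their summed counts. The other 166 had a median M of 292 CPM and 225 CPM of Tnnt2. Of these 166 cells, 145 had M below 1000 CPM, whereas 7 members lay between 3000 and 5000 CPM and 12 between 5000 and 7000 CPM. They met the rule because their S was lower still, with a median of 57.4 CPM. Their Tnnt2 level was below the 393 CPM of cells with S above 2 times M, so the data go against the label in them. They are called low-M cells, and members with at least 5000 CPM high-M members. At day 14, 14 of 1779 members were low-M cells. No cell type name is given to them, since markers of other cell types could not be looked up by ID.

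**Figure D1:**
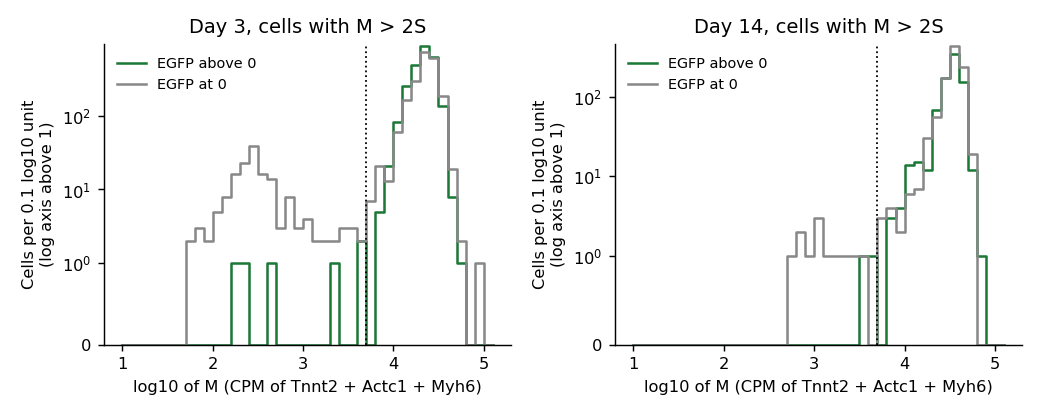
Number of member cells (log axis above 1) by log10 of M, the summed CPM of Tnnt2, Actc1 and Myh6, at day 3 and day 14, for cells with EGFP above 0 (green) and at 0 (grey). The dotted line marks 5000 CPM, below which 166 cells lay at day 3, 6 of them with EGFP, and 14 at day 14, 2 of them with EGFP.

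EGFP was found in few low-M cells. At day 3 an EGFP UMI was found in 6 of 166 of them (3.61%, interval 1.34 to 7.70%), against 2541 of 4670 high-M members (54.4%, 52.97 to 55.85%). These shares do not overlap in their counting intervals. The difference remained when every cell was thinned at random to 5000 UMIs, with 1.96% of low-M cells against 24.9%. At day 14, 2 of 14 low-M cells had EGFP (14.3%, 1.78 to 42.8%), an interval that is too wide to place them.

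Over all members, the rule gave an EGFP-positive share of 52.7% at day 3 and 44.7% at day 14. After thinning to 5000 UMIs the shares were 24.2% and 29.1%, so the order of the days turned, and no order is read from them. As a description of what the rule selected, the summed EGFP level was 92.9 CPM at day 3 and 163 CPM at day 14. In cells with S above 2 times M, called collagen-rich cells, 8.32% had an EGFP UMI at day 3 and 12.6% at day 14, or 2.1% and 5.72% after thinning. Their EGFP levels were 7.19 and 20.9 CPM. Tnnt2 stood at 393 and 568 CPM in them, against 10378 and 11621 CPM in high-M members. Actc1 in collagen-rich cells stood at 74.7 and 355 CPM, against 5349 and 10460 CPM in high-M members. EGFP stood at 94.7 and 163 CPM in high-M members. Whether an EGFP UMI in a collagen-rich cell came from expression, free RNA or doublets was not tested, so it is read neither way. Cells in neither class had 34.6% and 38.2%. The thinned shares of members and collagen-rich cells did not overlap in their counting intervals at either day. Median depth did not follow that order, with 22335 UMIs in members and 24535 in collagen-rich cells at day 3, and 14562 and 15922 at day 14. In the 3 TBX18 cultures, whose libraries held ZsGFP but were not given the EGFP virus, 1 of 3236, 0 of 1087 and 1 of 2452 cells with M above 2 times S had an EGFP UMI.

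**Figure D2:**
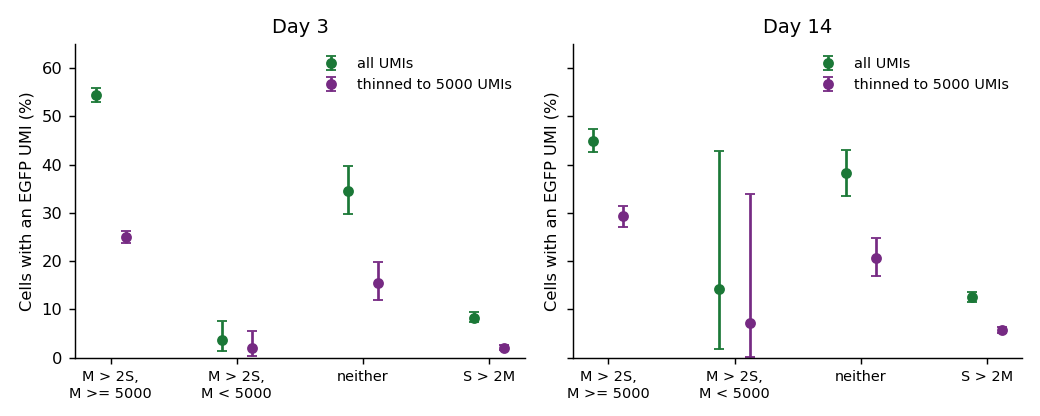
Percentage of cells with an EGFP UMI in 4 classes of cells of the GFP libraries at day 3 and day 14, with all UMIs (green) and after thinning to 5000 UMIs (purple); bars are exact 95% intervals for counting error. High-M members stood at 54.4% and 45.0%, and cells with S above 2 times M at 8.32% and 12.6%.

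The selection rule has a threshold in M and S, and cells beside it differed from the bulk of the members. At day 3, 95 members had M between 2 and 4 times S, with an EGFP share of 17.9% and a median M of only 315 CPM. The 181 cells just outside, with M between 1 and 2 times S, had a share of 33.7% and a median M of 8285 CPM. At day 14 the 27 cells just inside had 18.5% and the 135 just outside 36.3%.

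Detection rose with depth among members. At day 3, members were cut into 5 classes of nearly equal size by UMIs, and EGFP was found in 28.5% of the shallowest class and 76.8% of the deepest. At day 14 the same shares were 27.0% and 59.6%. The EGFP level in CPM was higher in the deepest class as well, from 56.8 to 134 CPM at day 3 and from 143 to 208 CPM at day 14, with its lowest value in the next-to-shallowest class at both days. All comparisons between the EGFP classes below were therefore made between equal numbers of cells drawn within 20 bins of depth.

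**Figure D3:**
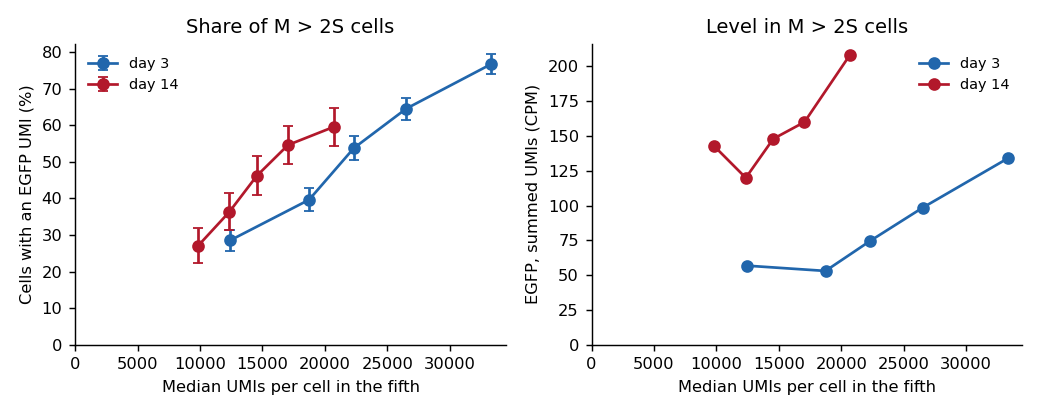
Percentage of members with an EGFP UMI (left, with exact 95% intervals) and summed EGFP level in CPM (right) in 5 classes of members by UMIs per cell, at day 3 (blue) and day 14 (red). The share rose in every step at both days, from 28.5 to 76.8% and from 27.0 to 59.6%.

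EGFP was unevenly spread over positive cells. A positive member had a median of 2 EGFP UMIs at day 3 and of 3 at day 14. At day 3, 914 of 2547 positive members had a single UMI, and 207 had at least 10, with 119 in the highest. At day 14, 228 of 796 had a single UMI, and 105 had at least 10, with 135 in the highest. The 10% of positive cells with most EGFP held 42.1% of its UMIs at day 3 and 48.1% at day 14.

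Few genes differed between EGFP-positive and EGFP-negative members once low-M cells were set apart. A gene was counted as higher or lower where its ratio of summed UMIs passed 1.2-fold and the interval of the ratio excluded no difference, provided that its mean over both classes reached 20 CPM. At day 3, over all members and 1676 cells a class, 39 of 4169 genes were higher in EGFP-positive cells (0.935%) and 147 were lower (3.53%). The EGFP-negative class there held 88 low-M cells and the positive class 5. In high-M members, 1638 a class, 23 of 4122 genes were higher (0.558%) and 29 lower (0.704%). The standard deviation (SD) of the log2 ratios over genes fell from 0.36 to 0.10, and counting error alone corresponds to an SD of 0.049. Of the 147 genes that were lower over all members, 18 stayed lower after low-M cells were left out.

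At day 14 leaving out low-M cells changed less. Over all members, with 692 cells a class, 72 of 4498 genes were higher (1.6%) and 143 were lower (3.18%). Scaling by the median gene turned these counts into 102 and 118. In high-M members, 691 a class, 76 of 4481 genes were higher (1.7%) and 113 lower (2.52%). The SD over genes was 0.14, against 0.092 for counting error alone. The day 14 sums rest on fewer UMIs, so the counts of the 2 days are not compared.

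In the matched high-M members the 3 contractile genes of the rule differed little between the EGFP classes, which is a description, as the rule used them. At day 3 the levels in positive and negative cells were 10565 and 10611 CPM for Tnnt2, 5352 and 5555 CPM for Actc1, and 6808 and 6833 CPM for Myh6. At day 14 Actc1 stood at 10050 and 10890 CPM, a log2 ratio of -0.12, and Myh6 at 11838 and 12470 CPM, a log2 ratio of -0.075. Col1a1 had a log2 ratio of -0.11 at day 3, and at day 14 it stood at 222 and 286 CPM, a log2 ratio of -0.37. Col1a2 had a log2 ratio of -0.062 at day 3 and -0.35 at day 14. For Col1a1 and Col1a2 at day 14, the 1% of negative cells with most UMIs of the gene held 24.1% and 29.9% of its counts. Without the top 1% of cells of either class, the log2 ratios of Col1a1 and Col1a2 at day 14 were -0.17 and -0.15.

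The gene ENSRNOG00000017786 was chosen as one of the 2 highest, so its higher level in EGFP-positive cells at both days is a description. In high-M members it stood at 236 CPM in positive and 154 CPM in negative cells at day 3, a log2 ratio of 0.61 (0.56 to 0.66). At day 14 it stood at 634 and 460 CPM, a log2 ratio of 0.46 (0.41 to 0.52). After thinning, 43.7% of positive (41.3 to 46.2%) and 37.7% of negative cells (35.4 to 40.2%) had a UMI of it at day 3. At day 14, 51.1% (47.3 to 54.9%) and 44.1% (40.4 to 47.9%) had a UMI of it, with intervals that overlap. Its level in all high-M members was 225 CPM at day 3, against 2.39 CPM in collagen-rich cells and 8.71 CPM in low-M cells, so it was highest in high-M members, as the contractile genes of the rule were.

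The gene ENSRNOG00000000521 was also higher at both days. It stood at 52.8 CPM in positive and 38.3 CPM in negative cells at day 3, a log2 ratio of 0.46 (0.36 to 0.56). At day 14 it stood at 201 and 148 CPM, a log2 ratio of 0.44 (0.35 to 0.54). After thinning, 16.5% of positive and 12.2% of negative cells had a UMI of it at day 3, and 42.7% and 33.9% at day 14. At day 3 it stood at 48.9 CPM in high-M members, 53.2 CPM in collagen-rich cells and 118 CPM in low-M cells. At day 14 it stood at 172, 87.5 and 326 CPM, so its order between high-M members and collagen-rich cells was not the same at both days. Without the top 1% of cells for each gene, the log2 ratios of ENSRNOG00000017786 were 0.51 and 0.55 and those of ENSRNOG00000000521 were 0.45 and 0.48, at day 3 and day 14. When cells were matched on cluster as well as depth, they were 0.41 and 0.49, and 0.32 and 0.63.

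In high-M members the difference of ENSRNOG00000018454 between all positive and negative cells rested on few cells. Over all members it had 103 CPM in positive and 2555 CPM in negative members at day 3, a log2 ratio of -4.63 (-4.68 to -4.59). Its level was 45879 CPM in low-M cells, 130 CPM in high-M members and 1315 CPM in collagen-rich cells. In high-M members its log2 ratio was -1.71 at day 3 and -0.86 at day 14, and the top 1% of negative cells held 81.8% and 89.3% of its UMIs. Without the top 1% of cells in each class the log2 ratio was -0.054 (-0.16 to 0.054) at day 3 and 0.073 (-0.22 to 0.36) at day 14, neither past the fold used. Another draw of matched cells gave -0.35 at day 14, and matching on cluster 0.68. In cells with at least 5 EGFP UMIs at day 3 the log2 ratio was -1.63, -1.78 without the top 1% of cells and -2.26 when matched on cluster. Without the top 6% of cells by doublet score it was -0.43. At day 14 the gene had -3.70 in such cells, and -0.50, 0.50 and -2.48 under these 3 settings in the same order. Its day 3 values included fractions, so reads shared with another gene may enter them.

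ENSRNOG00000043451 was also highest in low-M cells. Its log2 ratio over all members was -2.43 at day 3 and -1.60 at day 14, with 3174 CPM in low-M cells and 37.7 CPM in high-M members at day 3. In the latter cells its log2 ratio was -0.23 (-0.34 to -0.11) at day 3 and -0.19 (-0.48 to 0.10) at day 14, neither past the 1.2-fold limit. At day 14 its value was not stable, with -1.28 in another draw of matched cells and -1.11 without the top 1% of cells. After thinning, 3.18% of positive cells (2.01 to 4.78%) and 7.09% of negative cells (5.29 to 9.27%) had a UMI of it at day 14.

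Groups of genes were defined in the 3 TBX18 libraries, which hold no cell of the GFP cultures, since lists of named genes could not be used. Myocyte-high genes had at least 20 CPM and a level at least 4-fold above that of collagen-rich cells in all 3 libraries, and stromal-high genes the reverse; the 6 genes of the rule were left out. The medians of stromal-high genes lay on the lower side in EGFP-positive high-M members. At day 3, 0 of 59 tested were higher and 11 were lower (18.6%), with a median log2 ratio of -0.051 against 0.0076 over all genes tested. At day 14, 2 of 55 were higher (3.64%, against 1.7% of all genes) and 7 lower (12.7%), with a median of -0.10 against -0.015. Of all genes, 0.704% were lower at day 3 and 2.52% at day 14. Myocyte-high genes had medians of 0.0020 and 0.014. At day 3, 4 of 307 were higher (1.30%, against 0.558% of all genes) and 0 lower. At day 14, 10 of 332 were higher (3.01%, against 1.7%) and 1 lower (0.301%, against 2.52%). The median S was 78.1 CPM in positive and 76.2 CPM in negative cells at day 3, and 407 and 434 CPM at day 14. Cells among the top 6% of the library by doublet score made up 3.48% of positive and 4.21% of negative cells at day 3, and 0.724% and 1.16% at day 14. The part of collagen-rich RNA or of doublets in these counts was not tested.

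Genes that were at least 2-fold higher in myocytes at day 14 than at day 3 in the TBX18 cultures had medians near that of all genes. Of these, 493 were tested at day 3, 3 were higher (0.609%, against 0.558% of all genes) and 7 lower (1.42%, against 0.704%), with a median of -0.0077. At day 14, 743 were tested, 19 were higher (2.56%, against 1.7%) and 28 lower (3.77%, against 2.52%), with a median of -0.016. Genes that were lower with time had medians of 0.022 and -0.087, against 0.0076 and -0.015 over all genes tested. At day 3, 3 of 125 were higher (2.4%, against 0.558%) and 3 lower (2.4%, against 0.704%). At day 14, 3 of 87 were higher (3.45%, against 1.7%) and 3 lower (3.45%, against 2.52%). Another group held genes at least 4-fold higher in the low-M cells of the day 3 TBX18 culture than in its other 2 classes. Over all members at day 3 they stood far below, with 23 of 26 tested lower (88.5%, against 3.53% of all genes). Of the 26, 1 was higher (3.85%, against 0.935%), and the median log2 ratio was -3.87. In high-M members, 2 of 10 tested were lower (20%, against 0.704%) and 1 higher (10%, against 0.558%), with a median of -0.069.

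The log2 ratio of ENSRNOG00000017786 was highest in the class with most EGFP. Positive high-M members were split by EGFP UMIs and compared with EGFP-negative cells of matched depth. ENSRNOG00000017786 had log2 ratios of 0.21 at 1 UMI, 0.41 at 2 to 4 UMIs, 0.91 at 5 to 9 UMIs and 0.93 at 10 or more at day 3. At day 14 its log2 ratios were 0.42, -0.068, 0.65 and 0.97 in the same order. ENSRNOG00000000521 had 0.17, 0.21, 0.69 and 1.21 at day 3 and 0.38, 0.0086, 0.70 and 0.75 at day 14. With equal numbers of cells in every class, ENSRNOG00000017786 had 0.25, 0.39, 0.55 and 0.93 at day 3 and 0.66, 0.13, 0.50 and 0.97 at day 14. ENSRNOG00000000521 then had 0.27, 0.24, 0.16 and 1.21 at day 3 and 0.80, 0.25, 0.71 and 0.75 at day 14. The class of 10 or more UMIs stood highest for the former gene in both forms and days. For the latter gene it did so except at day 14 with equal numbers, where the class of 1 UMI did. The class of 10 or more set the equal number, so its values are the same in both forms. For ENSRNOG00000017786 at day 3, its interval (0.83 to 1.02) overlapped that at 5 to 9 UMIs (0.83 to 0.98). The order of the other classes changed with the cells drawn. Each class was drawn against its own set of negative cells from the same pool, so the values are not independent.

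**Figure D4:**
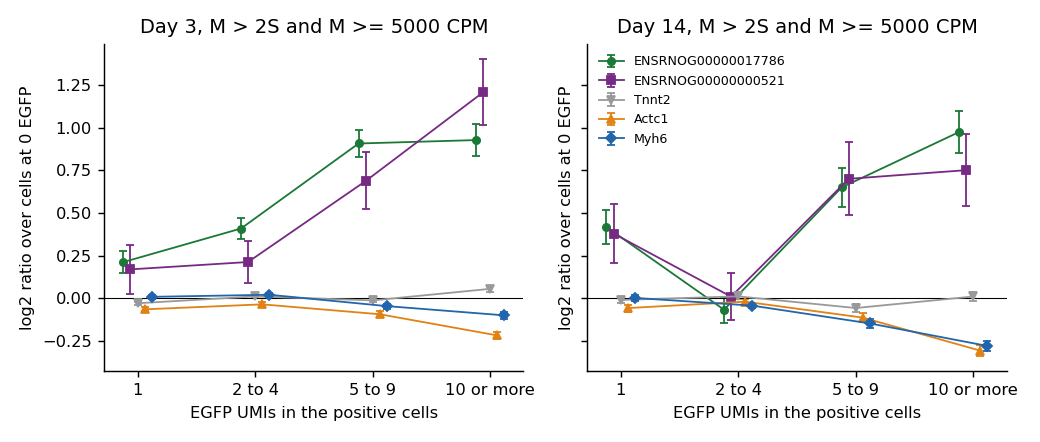
Log2 ratio over EGFP-negative cells of matched depth, by EGFP UMIs in the positive cells, for 2 IDs that were higher and the 3 contractile genes of the rule, at day 3 and day 14, in high-M members; bars are exact 95% intervals for counting error. At 10 or more EGFP UMIs, Actc1 stood at -0.22 and -0.31 and Myh6 at -0.10 and -0.28, while both IDs stood between 0.75 and 1.21. The values are a description for the contractile genes, as the rule used them.

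In cells with 10 or more EGFP UMIs, Actc1 and Myh6 passed the 1.2-fold limit in the lower direction at day 14 and did not pass it at day 3. Values of the contractile and collagen genes are again a description, as the rule used them. At 10 or more EGFP UMIs, Actc1 stood at 4637 CPM against 5397 CPM in negative cells at day 3 (log2 ratio -0.22) and at 8712 against 10788 CPM at day 14 (-0.31). Myh6 stood at -0.10 and -0.28. Tnnt2 was at 0.054 and 0.0095, and no conclusion is drawn from these genes. The 3 collagen genes did not follow the amount of EGFP at day 3, where Col1a2 was at -1.05 with 5 to 9 UMIs and at 0.59 with 10 or more. At day 14 they stood at -1.09, -1.38 and -1.06 for Col1a1, Col1a2 and Col3a1 with 10 or more UMIs.

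The number of differing genes was largest in the class with most EGFP when every class had the same number of cells. With 204 cells a class at day 3, 162 (3.92%), 147 (3.48%), 119 (2.78%) and 241 genes (5.55%) were higher with 1, 2 to 4, 5 to 9 and 10 or more UMIs, and 63 (1.53%), 105 (2.49%), 236 (5.51%) and 409 (9.42%) were lower. The SD over genes was 0.17, 0.17, 0.21 and 0.33, against 0.14, 0.13, 0.13 and 0.12 for counting error. With 103 cells a class at day 14, 123 (2.73%), 114 (2.57%), 143 (3.19%) and 259 (5.73%) were higher, and 156 (3.46%), 209 (4.72%), 250 (5.57%) and 308 (6.82%) were lower. The number lower rose in every step at both days, and the number higher did not. Positive cells also became deeper, from a median of 22813 UMIs in the lowest to 29775 in the highest class at day 3 and from 15212 to 17506 at day 14, and the part of depth in these counts was not tested.

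Cells with at least 5 EGFP UMIs were then set against EGFP-negative cells at each day. At day 3, with 557 cells a class, 100 of 4283 genes were higher (2.33%) and 217 lower (5.07%). At day 14, with 243 cells a class, 185 of 4487 were higher (4.12%) and 263 lower (5.86%). The days share no library. Of 3804 genes tested at both, 79 were higher at day 3 and 135 at day 14, and 19 were higher at both, which is 24.1% and 14.1% of the lists. Over all genes tested at each day, the shares higher were 2.33% at day 3 and 4.12% at day 14, and those lower 5.07% and 5.86%. Of 129 genes lower at day 3 and 209 lower at day 14, 44 were lower at both (34.1% and 21.1%), and 2 genes went opposite ways. The log2 ratios of the 2 days had r = 0.40 across these genes, which are not independent replicates, against 0.22 when all positive cells were used. Matching on cluster as well as depth gave 23 genes higher at both days, 10 lower at both and 4 opposite. Another draw, leaving out the top 1% of cells, and leaving out cells of high doublet score gave 17, 23 and 23 higher, 42, 35 and 39 lower, and 5, 2 and 12 opposite. Cells of high doublet score made up 4.31% of positive and 7.54% of negative cells at day 3, and 0% and 2.47% at day 14.

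**Figure D5:**
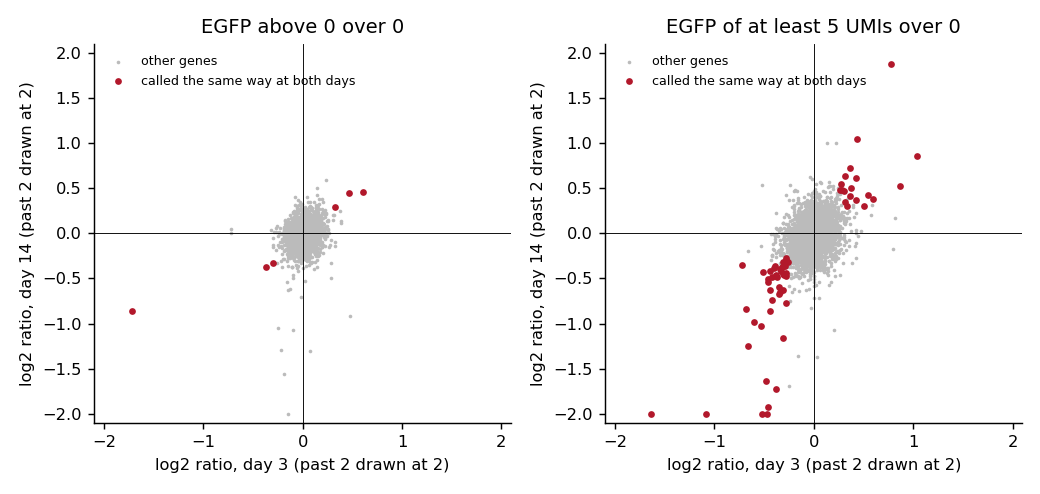
Log2 ratio of each gene tested at both days at day 3 (horizontal) and day 14 (vertical) in high-M members, for all EGFP-positive cells (left, 3728 genes) and for cells with at least 5 EGFP UMIs (right, 3804 genes) over EGFP-negative cells; red points were called the same way at both days, and values past 2 are drawn at 2. On the right 19 red points lie above 0 at both days and 44 below, against 3 and 3 on the left.

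The EGFP-positive share varied among clusters of high-M members, which were formed without the virus features. Over 12 clusters at day 3 the share after thinning ran from 14.0% (9.82 to 19.1%) to 30% (20.3 to 41.3%). Over 11 clusters at day 14 it ran from 21.2% (11.1 to 34.7%) to 66.7% (47.2 to 82.7%), the latter in a cluster of 30 cells with 408 CPM of EGFP and a median M of 13225 CPM, the lowest M of the 11. In that cluster ENSRNOG00000017786 stood at 7.31 CPM and ENSRNOG00000000521 at 360 CPM, against 534 and 172 CPM in all high-M members at day 14.

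The same contrast was made in the TBX18 cultures, with cells positive for hTBX18 or ZsGFP, and the values are given side by side. The numbers of cells a class differed from those of the GFP contrasts, so the counts of genes are not compared. Among high-M cells, with 1070 a class, 237 of 4053 genes were higher (5.85%) and 249 lower (6.14%) at day 3. At day 14, with 162 a class, 475 of 5038 were higher (9.43%) and 243 lower (4.82%). With A83-01, a TGF-beta receptor inhibitor, and 323 a class, 423 of 4176 were higher (10.1%) and 112 lower (2.68%). ENSRNOG00000017786 had log2 ratios of 0.22, -0.12 and 0.14 there, none past 1.2-fold. ENSRNOG00000000521 had 0.038, 0.30 and 0.56, higher in both day 14 cultures. Of the genes higher with the TBX18 transcript in all 3 of those cultures, 22 were tested in the GFP contrast at each day, and at each day 2 of them were higher (9.09%) and 0 lower, with medians of 0.079 and 0.065. The shares over all genes were 0.558% at day 3 and 1.7% at day 14. Of the genes lower with the TBX18 transcript in all 3 cultures, 0 of 18 were higher at day 3 and 1 was lower (5.56%, against 0.704% of all genes). Their median was 0.033. At day 14, 0 of 21 were higher and 2 were lower (9.52%, against 2.52% of all genes), with a median of -0.092.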

How the data were processed

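Single cells were captured in droplets and sequenced from transcript 3' ends, per the labels' protocols. The submitters' processing notes name STAR 2.7.8a, Partek and the build Rnor_6.0, without saying which step each served. For day 3 the authors deposited estimated counts per cell and gene, 99.7% of them whole within 0.05, and they were rounded. For day 14 the deposited values were log2 of CPM plus 1. They were turned back into UMIs by dividing each cell's CPM by its commonest step, and 99.7% came out whole. The authors' filters are not given in the sources used here; the day 14 tables began at 1993 genes per cell.

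Barcodes with at least 500 genes were kept. EGFP classes were matched on depth by drawing equal numbers of cells within 20 bins of log UMIs. Ratios of summed UMIs over totals carry exact binomial intervals given their sum, and shares exact Clopper-Pearson intervals. The scripts were tested on simulated data. No test between libraries was made, with 1 library a group. Scrublet's automatic threshold marked 0.0615% and 0.0156% of cells, too few to have worked, so doublets stayed in and leaving out the top 6% by score was an alternative. Clusters were made with scanpy 1.11.5 and leidenalg 0.10.2 at resolution 1. From 7 to 20 cell barcodes were shared between pairs of libraries.

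Members and lists were chosen with earlier results of these data known. Lists of named genes, markers of cell types and a match on the mitochondrially encoded share had been planned and could not be applied, since IDs have no names. Named IDs are the 2 highest and 2 lowest, among genes of at least 20 CPM with the same direction at both days, by the end of the interval nearest 0 at the day where it is nearer. Limits at M of 5000 CPM, gene groups, classes of equal size, the class of at least 5 EGFP UMIs and leaving out the top 1% of cells were chosen after seeing the data.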

Additional observations from a re-analysis of the deposited data

Results flagged for a closer look

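Actc1 and Myh6 moved in opposite directions at the 2 days over all members, and whether the days differ was not tested. Actc1 had a log2 ratio of EGFP-positive over EGFP-negative cells of 0.014 at day 3 and -0.10 at day 14. Myh6 had 0.033 and -0.071. In high-M members the day 3 values were -0.053 and -0.0053. With low-M cells included, the day 3 value of Actc1 also fell below 0 under other settings, with -0.0043 with 10 bins of depth, -0.040 with no depth matching, -0.020 when thinned, -0.0088 for at least 2 EGFP UMIs, -0.024 with M > 10S and -0.0069 with median-of-ratios scaling. The rule used both genes to choose the cells.

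In barcodes of the day 3 library with under 500 genes, which entered no comparison, 4 EGFP UMIs were found in 731 barcodes, a level of 0.767 CPM against 92.9 CPM in members. The limit set for a count of 0 is 3 counts. Free RNA was not measured apart from cells, so these UMIs are not read as EGFP in those barcodes.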

How the results depend on the processing

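Counts of higher and lower genes moved by over 1.5 times under some settings. At day 3 over all members, the 39 higher genes became 261 with no depth matching, 483 when thinned to 5000 UMIs, 20 with M > 10S, 6 at a mean of at least 100 CPM, 209 at 5 CPM, 366 with no filter on low values, 25 with median-of-ratios scaling, 21 with a pseudocount of 5 CPM, 23 with M of at least 5000 CPM and 13 with M of at least 10000 CPM. The 147 lower genes became 87 with M > 10S, 46 at 100 CPM, 406 at 5 CPM, 1215 with no filter, 29 with M of at least 5000 CPM and 28 with 10000 CPM. At day 14 the 72 higher genes became 141 when thinned, 6 at 100 CPM, 161 at 5 CPM, 249 with no filter and 42 with the pseudocount, and the 143 lower genes became 15, 413 and 708 under the 3 filters. Filters change the number of genes tested, and the other causes were not tested. With M of at least 5000 CPM, at least 2 EGFP UMIs gave 44 higher and 49 lower genes at day 3 and 186 lower at day 14, matching on cluster gave 19 lower at day 3, and no depth matching 169 higher at day 3. A second draw of matched cells called 16 of the 23 higher and 20 of the 29 lower genes again at day 3, and 52 of 76 and 79 of 113 at day 14. The median gene lay at 0.021 at day 3 and at -0.022 at day 14, which is what median-of-ratios scaling removes.

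The EGFP-positive share was 33.8% at day 3 and 31.9% at day 14 for at least 2 UMIs, 24.2% and 29.1% when thinned, and at day 3 55.3% with at least 2000 genes and 54.4% with M of at least 5000 CPM. At day 14 the log2 ratio of Col1a2 turned to 0.033 with M > 10S, and that of ENSRNOG00000043451 to 0.13 with M of at least 10000 CPM. With M of at least 5000 CPM, that of ENSRNOG00000018454 turned to 0.68 when matched on cluster and to 0.073 without the top 1% of cells. Under every alternative run for the contrast of all positive with all negative cells, ENSRNOG00000017786 and ENSRNOG00000000521 stayed above 0 at both days. Both IDs were chosen for this direction in the same libraries, so this is not a separate check.

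No paired analysis was possible because every group has 1 library. Matching on the mitochondrially encoded share was not run. The planned gene lists were not run either. Counting error alone gave an SD over genes of 0.092 at day 14. The interval of a gene depends on its own count, so genes near the 20 CPM limit are the least precise.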
